A study of Homo sapiens with 6 samples.

Results

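DUSP9 and 9 further genes that restrain or report signalling through the mitogen-activated protein kinases (MAPKs) were followed in cells labelled as hepatoblasts. The exposure was to HFPO-TA, a fluorinated ether acid in full called hexafluoropropylene oxide trimer acid. The 10 genes were DUSP1, DUSP4, DUSP5, DUSP6, DUSP9, DUSP10, SPRY2, SPRY4, ETV4 and ETV5, out of 60623 genes in the deposited tables. The set was chosen by the rise of the DUSP9 level with HFPO-TA in these same libraries, and the other 9 were added from the pathway for comparison. The HFPO-TA against DMSO values of all 10 are therefore a description, and no test of them is used as support. The cells came from differentiated H9, an established line of human embryonic stem cells, and carry the label of hepatoblasts at day 19. There were 3 libraries of cells given 0.1% DMSO, the vehicle, and 3 of cells given HFPO-TA. The HFPO-TA dose is printed as 10 in the labels, where its unit is garbled, and whether DMSO was also in the HFPO-TA cultures is not stated. H9 is 1 line, and nothing in the labels tells whether replicate libraries were separate cultures, so the spread between them may be technical.

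MAPK cascades carry signals from receptors at the cell surface to the nucleus, with ERK, JNK and p38 as the last kinases. The dual-specificity phosphatases (DUSPs) remove phosphate from both the threonine and the tyrosine that activate a MAPK. Many of them are themselves switched on by the cascade, so that they form a feedback loop. Sprouty proteins (SPRY) block the same path nearer the receptor, and the ETS factors ETV4 and ETV5 are transcribed when fibroblast growth factor (FGF) signals reach ERK. In liver, ERK signalling is driven mainly by growth factors such as FGF and the ligands of the epidermal growth factor receptor.

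The upstream sequences of DUSP9 and DUSP1 are shown first, because these were the most abundant of the 10 genes and the phosphatases whose levels did not overlap between the groups. In GENCODE 29 (GRCh38) DUSP9 lies on chromosome X from 153642492 to 153651326 on the plus strand, and DUSP1 on chromosome 5 from 172768090 to 172771195 on the minus strand. RefSeq (GRCh38.p14) gives DUSP9 a pair of transcription starts. The 250 bases before each start are printed 5′ to 3′ toward the gene. Capitals mark the GC box (GGGCGG on either strand) in DUSP9, and in DUSP1 the cyclic AMP response element (CRE, TGACGTCA) and the TATA box (TATAAA).
DUSP9, first start, chrX:153642191-153642440, plus strand: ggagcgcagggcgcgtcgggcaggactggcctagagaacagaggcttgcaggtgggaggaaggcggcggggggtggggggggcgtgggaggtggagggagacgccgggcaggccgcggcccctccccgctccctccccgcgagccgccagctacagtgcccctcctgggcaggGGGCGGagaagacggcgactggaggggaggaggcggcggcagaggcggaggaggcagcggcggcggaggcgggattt
DUSP9, second start, chrX:153646953-153647202, plus strand: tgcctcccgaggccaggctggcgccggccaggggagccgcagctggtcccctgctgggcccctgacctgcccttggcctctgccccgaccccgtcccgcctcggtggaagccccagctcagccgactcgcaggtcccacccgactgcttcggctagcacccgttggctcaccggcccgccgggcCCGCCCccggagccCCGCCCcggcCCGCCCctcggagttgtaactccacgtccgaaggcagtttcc
DUSP1, chr5:172771196-172771445, minus strand: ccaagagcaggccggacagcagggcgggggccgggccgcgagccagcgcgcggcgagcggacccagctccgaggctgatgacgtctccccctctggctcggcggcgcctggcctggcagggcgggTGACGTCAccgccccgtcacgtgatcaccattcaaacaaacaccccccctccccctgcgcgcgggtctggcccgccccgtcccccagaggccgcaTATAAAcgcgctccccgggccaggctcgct
Both DUSP9 windows were rich in G and C, at 76.4% and 75.6% of bases, against a median of 58% over 35116 RefSeq windows of the same length. The first held 1 GC box and the second held 3. The DUSP1 window held 4, which are not in capitals. The motif was found in at least 1 window of 5 of the 6 members searched, and in 42.6% of all single windows. These shares are not alike, since DUSP9 and DUSP10 had 2 windows each and SPRY2 had 3. The DUSP1 window, at 74.4% G and C, held 1 CRE, found in 1.65% of all windows, and 1 TATA box, found in 10.7%. It also held 1 E-box (CACGTG), found in 6.34%. Neither DUSP9 window held these letters of the CRE, the TATA box or the E-box on either strand. The AP-1 site (TGANTCA, in 6.57% of all windows), the ETS site (CCGGAAGT, in 3.42%), the CArG box bound by serum response factor (1.16%) and the consensus direct repeat bound by PPAR receptors (0.0171%) were in 0 of the windows of DUSP1, DUSP6, DUSP9, DUSP10, SPRY2 and SPRY4. DUSP4, DUSP5, ETV4 and ETV5 were not searched. These matches describe letters only, and the gene values do not tell which DUSP9 start was used.

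DUSP9, a cytoplasmic phosphatase that acts mainly on ERK and is known from placenta, kidney and fetal liver, was the most abundant of the 10 genes in every library. Levels are given as TPM, transcript abundance scaled for gene length and library total, so that genes can be set side by side. DUSP9 stood at 131, 130 and 143 TPM in the 3 DMSO libraries and at 222, 238 and 272 TPM in the 3 HFPO-TA libraries. The lowest HFPO-TA library was above the highest DMSO library. The means were 135 ± 7.29 and 244 ± 25.3 TPM (SD, n = 3 each), a ratio of 1.81. The log2 fold change, taken on log2(TPM + 1) as HFPO-TA less DMSO, was 0.85 (SE 0.08). In the fit across 15664 tested genes DUSP9 was called higher, and it ranked 14 of the 29 genes called higher by size of change. The difference was 0.76 in replicate 1 alone and 0.89 in replicates 2 and 3. A letter in the file names sets these apart, and the labels do not explain it. Since the groups did not overlap, the direction had to be the same in both, so it is no check. The call was kept in 11 of 16 alternative settings and in 3 of the 6 fits that left out 1 library. It was lost without DMSO replicate 2, DMSO replicate 3 or HFPO-TA replicate 2, where the fold change was 0.83, 0.89 and 0.86.

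**Figure D1:**
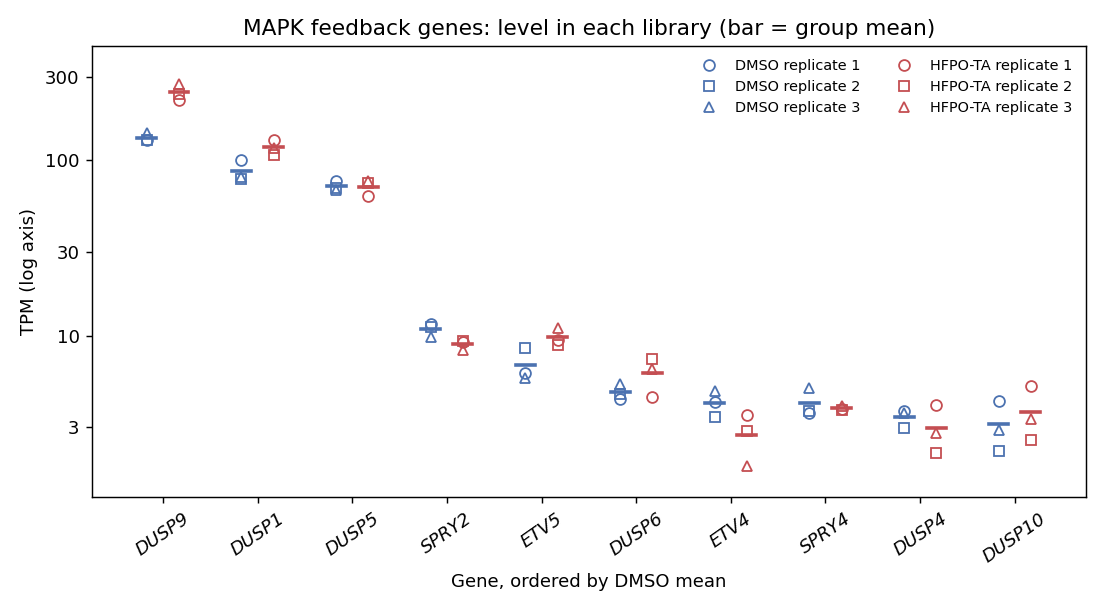
TPM on a log axis for each of the 10 genes in the 6 libraries, ordered by DMSO mean; symbols mark replicates and short bars the group means. DUSP9 lies at 130 to 143 TPM with DMSO and 222 to 272 TPM with HFPO-TA, and most of the other genes overlap between the groups.

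Of the 10 genes 1 was called, against 0.492% of all tested genes, and that gene is the one the set was picked for. It was 1 called higher and 0 lower, against 0.185% and 0.306% of tested genes. An unadjusted p under 0.05 was reached by 4 of the 10, against 12.0%. DUSP9 is 1 of these by the choice of the set, and without it the count was 3 of 9. The groups did not overlap for 4 of the 10 genes, against 17.9% of all tested genes. Of these, 3 were higher (DUSP1, DUSP9 and ETV5), against 8.55%, and 1 was lower (SPRY2), against 9.40%. Here too DUSP9 counts by the choice of the set, and of the 9 without it 2 were higher and 1 lower. The median log2 fold change was 0.08 over the 10 genes, -0.01 over the 9 without DUSP9 and -0.01 over all tested genes. All 10 passed the filter on low values.

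Among the nuclear phosphatases, DUSP1, an early-response gene that acts on p38, JNK and ERK, was the second most abundant member. It stood at 100, 78.6 and 80.6 TPM with DMSO and at 131, 107 and 118 TPM with HFPO-TA. Every HFPO-TA library was above every DMSO library, by 7.17% at the closest pair. The log2 fold change was 0.45 (SE 0.11), and DUSP1 was not called. It was called in 2 of 16 alternatives, when replicate 1 was given a term of its own and when replicate 1 of both groups was left out.

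DUSP5, a nuclear phosphatase specific for ERK and transcribed on ERK activity, stood at 75.9, 69.6 and 68.1 TPM with DMSO and at 62.7, 73.9 and 75.8 TPM with HFPO-TA. The groups overlapped. The log2 fold change was -0.01, with a 95% interval of -0.22 to 0.20, and its sign turned under median-of-ratios scaling (0.001). DUSP4, another nuclear phosphatase of ERK and JNK, stood at 3.72, 2.97 and 3.61 TPM with DMSO and 4.04, 2.13 and 2.76 TPM with HFPO-TA. Here HFPO-TA replicate 1 was the highest of all 6 libraries and HFPO-TA replicate 2 the lowest.

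DUSP6, the cytoplasmic ERK phosphatase that is a common readout of FGF signalling, was far below DUSP9 in these cells. It stood at 4.36, 4.65 and 5.27 TPM with DMSO and 4.43, 7.38 and 6.48 TPM with HFPO-TA. HFPO-TA replicates 2 and 3 were above all DMSO libraries, while HFPO-TA replicate 1 lay among them. The ratio of DUSP9 to DUSP6 was 28.4 ± 1.45 for DMSO and 41.5 ± 8.97 for HFPO-TA libraries (SD, n = 3 each). DUSP10, a phosphatase of JNK and p38, stood at 4.25, 2.19 and 2.90 TPM with DMSO and 5.13, 2.55 and 3.34 TPM with HFPO-TA. In both groups replicate 1 was the highest and replicate 2 the lowest, and the log2 fold change of 0.18 (SE 0.25) was smaller than its error.

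**Figure D2:**
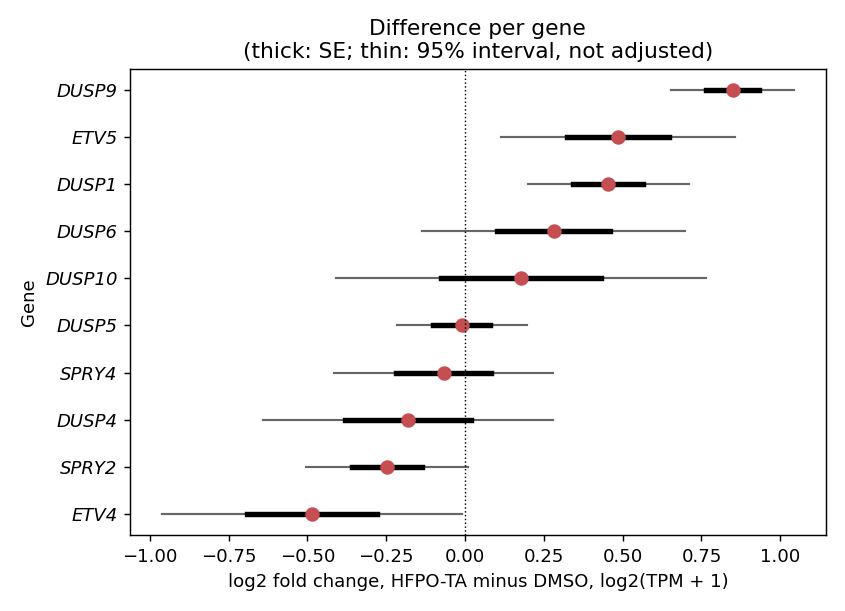
Log2 fold change of each of the 10 genes, HFPO-TA less DMSO on log2(TPM + 1) values, with 1 SE as a thick line and the unadjusted 95% interval as a thin line. DUSP9 stands at 0.85, ETV5 and DUSP1 at 0.49 and 0.45, and ETV4 at -0.49.

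DUSP9 took a larger part of the phosphatase transcripts with HFPO-TA. The 10 typical MAPK phosphatases (DUSP1, DUSP2, DUSP4 to DUSP10 and DUSP16) summed to 365, 327 and 343 TPM with DMSO and 476, 472 and 521 TPM with HFPO-TA. The share of DUSP9 in that sum was 35.8%, 39.8% and 41.7% with DMSO and 46.8%, 50.5% and 52.2% with HFPO-TA. The share of DUSP1 was 25.0% ± 2.13 and 24.3% ± 2.76 (SD, n = 3 each), so the groups overlapped. The share of DUSP5 was lower in every HFPO-TA library, at 14.5% ± 1.24 against 20.6% ± 0.73 (SD, n = 3 each), while its level was close to the same in both groups. Without DUSP9, the sum of the other 9 was 210 ± 20.8 TPM with DMSO and 245 ± 10.5 TPM with HFPO-TA, with DMSO replicate 1 at 234 TPM above HFPO-TA replicate 2 at 233 TPM. The JNK and p38 phosphatases DUSP8, DUSP10 and DUSP16 together stood at 35.7 ± 3.48 and 37.7 ± 3.32 TPM.

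**Figure D3:**
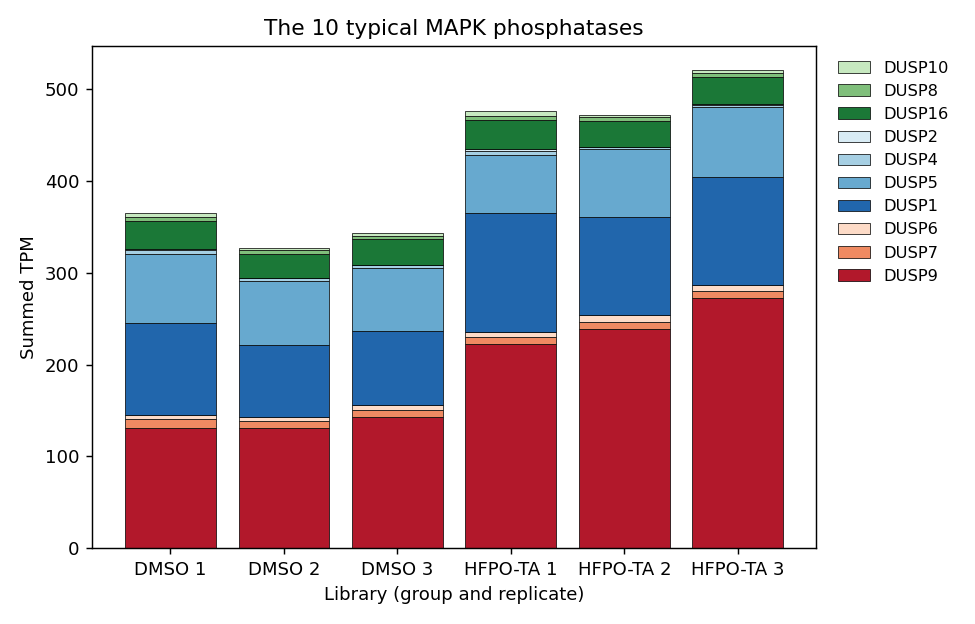
Stacked TPM of the 10 typical MAPK phosphatases in each of the 6 libraries, with DUSP9 at the base. The total is 327 to 365 TPM with DMSO and 472 to 521 TPM with HFPO-TA, and the DUSP9 segment widens most.

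Of the other typical phosphatases 3 were tested and 0 were called in either direction, against 0.492% of all tested genes. DUSP7, which with DUSP6 and DUSP9 forms the cytoplasmic ERK-specific class, stood at 9.70, 7.75 and 7.58 TPM with DMSO and 7.99, 7.73 and 8.31 TPM with HFPO-TA (log2 fold change -0.05, SE 0.12, adjusted p = 0.928 by limma). DUSP16, a JNK phosphatase, stood at 28.2 ± 1.98 and 29.7 ± 2.29 TPM (adjusted p = 0.818 by limma). DUSP2 lay below the filter, at 0.26 to 0.96 TPM with DMSO and 0.34 to 2.33 TPM with HFPO-TA. For the 3 that were tested, DUSP7, DUSP8 and DUSP16, the 95% interval of the log2 fold change lay within 0.5 of 0. It did so for 56.3% of all tested genes. The tyrosine phosphatases PTPN7, PTPRR and PTPN5 lay below the filter, at no more than 0.04, 0.32 and 1.24 TPM, so none of them was tested. Of 10 tested atypical members of the same list limma called 0, against 0.492% of all tested genes. An unadjusted p under 0.05 was reached by 1, against 12.0%. The groups did not overlap for 5 of these 10, with 2 higher and 3 lower, against 17.9% of all tested genes. The one with the small p was DUSP14, at 22.4 ± 1.65 and 18.9 ± 0.33 TPM (adjusted p = 0.361), and the most abundant was DUSP3, which acts on ERK and JNK, at 59.6 ± 1.91 and 54.2 ± 2.41 TPM (adjusted p = 0.491). Both were lower in every HFPO-TA library than in any DMSO library.

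The Sprouty genes, which act near the receptor, were not called. SPRY2 stood at 11.6, 11.1 and 9.79 TPM with DMSO and 9.24, 9.31 and 8.32 TPM with HFPO-TA. The groups did not overlap, although the closest libraries differed by 5.16%, and the log2 fold change was -0.25 (SE 0.11). SPRY4 stood at 3.61, 3.71 and 5.01 TPM with DMSO and 3.82, 3.74 and 3.96 TPM with HFPO-TA. Its 3 HFPO-TA libraries lay within the DMSO range. Of 11 other tested feedback genes, among them SPRY1, SPRED1, SPRED2 and SOCS3, limma called 0, against 0.492% of all tested genes. Their median log2 fold change was -0.003, and 1 had an unadjusted p under 0.05, against 12.0%. That one was ERRFI1, an inhibitor of the EGF receptor family and the most abundant of the list, at 79.5 ± 1.99 and 66.5 ± 11.3 TPM (adjusted p = 0.397). It stood at 79.4 TPM in HFPO-TA replicate 1 and at 58.6 and 61.5 TPM in the others, and without HFPO-TA replicate 1 it was called lower.

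The ETS factors ETV4 and ETV5 had fold changes of opposite sign. ETV5 stood at 6.12, 8.44 and 5.69 TPM with DMSO and 9.46, 8.79 and 11.1 TPM with HFPO-TA, with no overlap between the groups. Its log2 fold change was 0.49 (SE 0.16). ETV4 stood at 4.16, 3.45 and 4.83 TPM with DMSO and 3.50, 2.85 and 1.81 TPM with HFPO-TA, with an overlap between DMSO replicate 2 and HFPO-TA replicate 1. Its log2 fold change was -0.49 (SE 0.21). Neither was called in the fit or in any of the alternatives run. The ratio of ETV5 to ETV4 was 1.47, 2.45 and 1.18 with DMSO and 2.70, 3.08 and 6.10 with HFPO-TA. ETV4 overlaps DHX8 on the opposite strand, and DHX8 stood at 11.9 to 15.5 TPM. Whether the library kept strand is not given in the sources used here, so the value of ETV4 is uncertain.

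In order of DMSO mean the 10 genes ran DUSP9, DUSP1, DUSP5, SPRY2, ETV5, DUSP6, ETV4, SPRY4, DUSP4 and DUSP10. The ranges of neighbours did not overlap down to DUSP6, and from DUSP6 to DUSP10 each overlapped with the next. With HFPO-TA the order of the first 3 was unchanged, ETV5 and SPRY2 had overlapping ranges, and ETV4 was last.

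Of 30 tested immediate-early and output genes, which ERK activity switches on, limma called 0, with 1 at an unadjusted p under 0.05. Over all tested genes the shares were 0.492% and 12.0%, so a list of this size with no call is near the background. Their median log2 fold change was -0.03 and their range -0.49 to 0.36, with 14 above 0 and 16 below. For 17 of the 30 the 95% interval lay within 0.5 of 0, and for the other 13 it reached further; among all tested genes it lay within 0.5 for 56.3%. HBEGF, a ligand of the EGF receptor, had the smallest p, at 7.79 ± 0.40 and 5.25 ± 0.24 TPM (log2 fold change -0.49, SE 0.11, adjusted p = 0.122). ZFP36L1, an RNA-binding protein and by either group mean the most abundant of the list, stood at 125 ± 25.3 and 108 ± 20.6 TPM (adjusted p = 0.712). EGR1 and FOS, the classical immediate-early factors, are added here after their values were seen. EGR1 stood at 7.93, 5.10 and 5.15 TPM with DMSO and 5.45, 4.60 and 5.44 TPM with HFPO-TA. FOS stood at 15.1, 11.2 and 9.84 TPM with DMSO and 13.8, 6.92 and 8.46 TPM with HFPO-TA. Both overlapped between the groups.

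**Figure D4:**
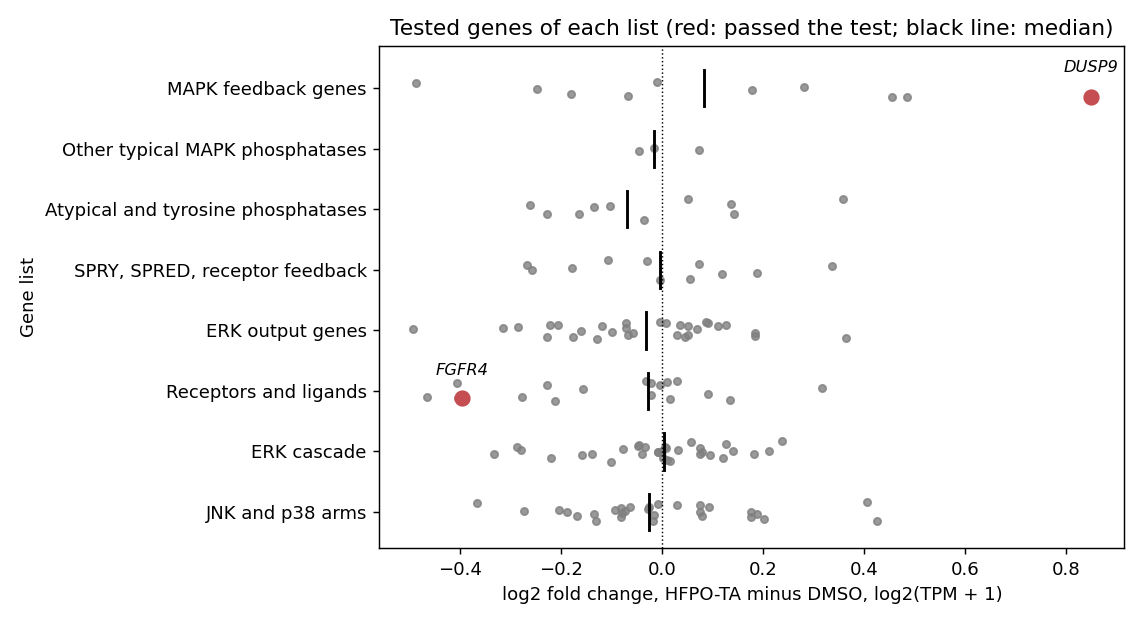
Log2 fold change of every tested gene in the set of 10 and in 7 lists of other pathway genes, with genes that passed the test in red and the median of each list as a black line. DUSP9 and FGFR4 are the genes in red, and the list medians lie between -0.07 and 0.08.

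Of the receptors and ligands upstream of ERK, 1 of 18 tested was called lower and 0 higher, against 0.306% and 0.185% of all tested genes. An unadjusted p under 0.05 was reached by 3, against 12.0%. The groups did not overlap for 4, against 17.9%, and all 4 were lower (FGFR4, FGFR3, PDGFRA and EGFR). The fold change was below 0 for 12 and above 0 for 6. The called gene was FGFR4, the main FGF receptor of hepatocytes, and it fell. It stood at 150, 147 and 159 TPM with DMSO and 119, 112 and 114 TPM with HFPO-TA, with no overlap (-0.40, SE 0.06, adjusted p = 0.0419 by limma). The call was lost in 10 of 16 alternatives, among them 5 of the 6 fits without 1 library, while the fold change stayed between -0.43 and -0.36. FGFR3, named after its values were seen, stood at 43.3, 39.5 and 42.2 TPM with DMSO and 34.9, 29.5 and 29.5 TPM with HFPO-TA (adjusted p = 0.117 by limma). FGFR2, also named after its values were seen, had the lowest fold change of the list (-0.47, SE 0.24). It stood at 27.4, 20.2 and 21.4 TPM with DMSO and 24.4, 14.0 and 12.4 TPM with HFPO-TA, so the groups overlapped. FGFR1 stood at 27.8 ± 3.49 and 27.9 ± 2.60 TPM, and KLB, the co-receptor that binds FGF19 and FGF21, at 60.1 ± 5.63 and 61.3 ± 3.97 TPM. FGF19 and FGF21 themselves lay below the filter, at no more than 0.86 and 0.25 TPM.

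Of the 32 genes of the ERK cascade limma called 0, against 0.492% of all tested genes, and their median log2 fold change was 0.004. An unadjusted p under 0.05 was reached by 3 (RPS6KA3, RPS6KA1 and SOS1), against 12.0%. RPS6KA1 was lower, at 30.8 ± 2.10 and 26.3 ± 2.08 TPM, and SOS1 was higher, at 22.9 ± 1.31 and 27.1 ± 0.76 TPM. MAPK3 (ERK1), a kinase that DUSP9 is known to act on, stood at 85.3 ± 6.31 and 85.8 ± 2.74 TPM. RPS6KA3, a kinase downstream of ERK, had the smallest p, at 68.3 ± 5.42 and 54.0 ± 2.98 TPM (log2 fold change -0.33, SE 0.08, adjusted p = 0.147). PEA15, which holds ERK in the cytoplasm, was the most abundant by DMSO mean, at 141 ± 15.9 and 127 ± 5.55 TPM (adjusted p = 0.599). With HFPO-TA the mean of MAP2K2, the kinase MEK2, was slightly above it, at 129 ± 2.27 TPM.

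Of 29 tested genes of the JNK and p38 arms limma called 0, against 0.492% of all tested genes, with a median of -0.03. An unadjusted p under 0.05 was reached by 2, against 12.0%. They were GADD45A and MAPK14. GADD45A, a stress protein that can activate a kinase upstream of p38 and JNK, stood at 79.1, 78.0 and 69.2 TPM with DMSO and 102, 99.0 and 103 TPM with HFPO-TA (log2 fold change 0.42, SE 0.07, adjusted p = 0.0563). It passed in 2 of 16 alternatives, with a term for replicate 1 and with a mean of at least 5 TPM. MAPK14, which encodes p38 alpha, stood at 32.9, 28.0 and 27.8 TPM with DMSO and 39.5, 37.8 and 41.0 TPM with HFPO-TA (log2 fold change 0.41, SE 0.09, adjusted p = 0.116). MAP3K5, a stress kinase that DUSP9 has been linked to in hepatocytes, lay below the filter, at 0.97 to 1.02 TPM with DMSO and 0.89 to 1.58 TPM with HFPO-TA. Over the 7 lists, 1 of 133 tested genes was called, against 0.492% of all tested genes, and 17 of the 150 lay below the filter.

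The genes whose pattern over the 6 libraries was most like that of DUSP9 were IDH1, RBP2 and RPA2, with Pearson r of 0.993, 0.993 and 0.991 on the log2(TPM + 1) scale. IDH1, the cytosolic isocitrate dehydrogenase, stood at 210 ± 6.82 and 297 ± 20.6 TPM. RBP2, a retinol-binding protein typical of intestine, stood at 290 ± 11.6 and 1235 ± 248 TPM. RPA2, a subunit of a single-stranded DNA binding complex, stood at 31.0 ± 0.29 and 34.1 ± 0.36 TPM. Among the most opposite was HEPH, a copper-dependent iron oxidase, with r of -0.996, at 185 ± 1.77 and 152 ± 5.71 TPM. These r values were among the extremes of 12429 genes ranked over 6 libraries that share the treatment contrast, and they say nothing of shared function. Within the set of 10, r with DUSP9 was 0.80 for ETV5, 0.80 for DUSP1, 0.68 for DUSP6, -0.80 for ETV4 and -0.92 for SPRY2. For the other 4 it was weaker, at 0.20 for DUSP10, 0.06 for DUSP5, -0.14 for SPRY4 and -0.44 for DUSP4.

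The labelled cell type was checked against marker genes. All 10 hepatocyte markers passed the filter, and their sum was lower in every HFPO-TA library, at 115702 to 129033 TPM with DMSO and 105632 to 114651 TPM with HFPO-TA. AFP made up most of that sum in every library. APOA1, the next in level, stood at 20579 ± 1354 and 21420 ± 1484 TPM, and its groups overlapped. An unadjusted p under 0.05 was reached by 7 of the 10, against 12.0% of all tested genes. The groups did not overlap for 7, against 17.9%: AFP, ALB, APOB, TTR, HNF4A and FGB were lower and APOA2 was higher. AFP, the main fetal serum protein, stood at 71682 to 79063 TPM in DMSO and 63150 to 66804 TPM in HFPO-TA libraries. ALB, which encodes albumin, stood at 113 ± 14.3 and 64.7 ± 9.84 TPM, and HNF4A, a hepatocyte transcription factor, at 49.3 ± 3.70 and 38.4 ± 1.21 TPM. APOA2, an apolipoprotein, stood at 5287 ± 666 and 8253 ± 1042 TPM. FGB, a fibrinogen chain, was the 1 marker of the 6 lists that was called, and it fell from 6737 ± 549 to 3453 ± 409 TPM (adjusted p = 0.0104 by limma). DUSP9 is also expressed in pluripotent cells and placenta. Summed pluripotency markers stood at 60.1 to 63.3 TPM with DMSO and 63.0 to 65.0 TPM with HFPO-TA over all 8 genes, of which 5 passed the filter. NANOG and SOX2 stayed under 1 TPM in every library, and POU5F1 stood at 0.19 to 1.75 TPM. Of the 5 that passed the filter, TDGF1 was the most abundant, at 23.4 to 32.2 TPM (log2 fold change 0.24, SE 0.11). LIN28A stood at 7.05 to 7.33 TPM with DMSO and 5.58 to 6.48 TPM with HFPO-TA. DNMT3B stood at 6.85 to 7.87 and 5.47 to 5.9 TPM, and both genes were lower in every HFPO-TA library. TDGF1, DPPA4 (11.95 to 13.35 TPM) and ZFP42 (6.97 to 9.22 TPM) overlapped between the groups, and none of the 5 was called. Summed trophoblast markers stood at 77.2 to 94.7 and 79.2 to 94.5 TPM over all 10 genes, of which 6 passed the filter. KRT7, which biliary cells also express, was the most abundant. HSD3B1 stood at 22.3 ± 3.71 and 22.5 ± 10.1 TPM, TFAP2A at 10.15 ± 3.44 and 8.77 ± 6.84 TPM, and GATA3 at 8.82 ± 3.20 and 8.49 ± 1.96 TPM. CGA had means of 1.72 and 2.60 TPM and TFAP2C of 1.56 and 1.59 TPM. All trophoblast markers that passed overlapped between the groups. PSG3 was listed at 0, and CGB3, CGB5 and TP63 stayed under 1 TPM. Summed stromal markers stood at 1220 to 1883 TPM with DMSO and 999 to 2159 TPM with HFPO-TA, highest in replicate 1 of both groups. Summed endothelial markers stood at 18.7 to 24.1 and 15.1 to 21.2 TPM, with VWF under 1 TPM. Within that sum EMCN was higher in every HFPO-TA library, at 1.04 ± 0.24 and 2.47 ± 0.61 TPM. CLDN5 was lower in every one, at 3.86 ± 0.91 and 2.38 ± 0.30 TPM. These were 40% of the 5 tested, against 17.9% of all tested genes, and neither was called. Summed neural markers stood at 44.9 to 49.97 and 34.3 to 54.4 TPM, with ELAVL4 listed at 0. The part of these cell types in the level of DUSP9 was not tested, and in bulk RNA a change in the number of cells of a type cannot be told apart from a change in RNA per cell.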

How the data were processed

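RNA sequencing of 3 DMSO and 3 HFPO-TA libraries was analysed from the deposited per-gene values. The authors used HISAT, Bowtie2 and RSEM with GRCh38.p13, per the submitters' processing notes, which give neither versions nor roles; for strand and annotation, the sources used here say nothing. The deposited column is headed FPKM, but it sums to between 995690 and 996186 in the 6 libraries, so the values were read as TPM made by the authors. Because TPM holds no read totals, the depth is unknown and counting error could not be computed. In each library 15383 to 15905 genes reached 1 TPM.

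Values were taken as log2(TPM + 1), keeping the 15664 genes that reached 1 TPM in 3 or more of the libraries. The model had only a treatment term, with a trended and robust variance, in limma 3.58.1 (R 4.3.3). A gene was called at a Benjamini-Hochberg adjusted p under 0.05 over all tested genes, 2-sided. Fold changes on this scale understate the change of low genes. The fit was tested on simulated data.

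The members and the gene lists were chosen with earlier results of these data known. Named were all 10 members; of each pathway list, the called genes, or else the one with the smallest p, and the most abundant; DUSP7; the 3 genes most like and the 2 least like DUSP9 with a mean of at least 2 TPM; the 2 nearest tested genes on each side of DUSP9; and called or most abundant markers. Any further gene was picked once its values were known, and not every gene the rule took is reported here. Positions are from GENCODE 29 (GRCh38), in which all 10 members were found. Plots were made in Python 3.11.15 (matplotlib 3.10.9). Alternative settings changed the filter, pseudocount, scaling, variance estimate and replicate terms, or left out each library.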

Additional observations from a re-analysis of the deposited data

How the results depend on the processing

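Called genes over all tested numbered 77, and 10 without a filter, 29 with a minimum of 0.1 TPM, 11 with a variance without trend or robust fitting, 30 with median-of-ratios scaling, 207 with a term for replicate 1 and 222 with replicates 2 and 3 alone; leaving out 1 library gave 6 (HFPO-TA replicate 2) to 291 (HFPO-TA replicate 1). Of the 10 members 1 was called, 0 without a filter or without trend or robust fitting (10 and 11 genes called in all), 2 (DUSP1 and DUSP9) with a term for replicate 1 or with replicates 2 and 3 alone, and 0 to 1 with 1 library left out. Of the wider pathway genes 1 was called; 0 with no filter or a minimum of 0.1 TPM, without trend or robust fitting and with median-of-ratios scaling; 2 with a mean of at least 5 TPM; 3 with a term for replicate 1; and 0 to 3 with 1 library left out. Fewer libraries or more genes were then fitted in some settings; beyond that the cause was not tested.

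The main fit had no replicate block. Deviations of same-numbered libraries correlated at 0.184, 0.123 and 0.028, and 5 of 6 libraries correlated best with their own number. Before group means were taken off, DMSO replicate 1 correlated at 0.9810 with HFPO-TA replicate 1. With DMSO replicates 2 and 3 it correlated at 0.9795 and 0.9793. The labels name no pairing, so it is not established. With a replicate block 30 genes were called, 20 of them shared with the 77, with 1 member (DUSP9) and 0 wider pathway genes.

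Single genes were followed over the settings for the members and the pathway genes taken by the naming rule, 21 in all. Genes named beyond these, such as FGFR3, MAPK14 and EGR1, were not followed. Signs turned for 4 of the 21, each with a fold change smaller than its SE. DUSP5 was at 0.001 with median-of-ratios scaling, 0.119 with replicates 2 and 3 alone, and from -0.061 to 0.073 with 1 library left out. DUSP10 was at -0.037 to 0.369 and SPRY4 at -0.137 to 0.055 over the settings. DUSP7 was at 0.057 with replicates 2 and 3 alone, and from -0.103 to 0.056 with 1 library left out. DUSP9 ranged from 0.769 to 0.914. Depth, unknown for TPM, limits what can be said of DUSP4, DUSP10, SPRY4 and ETV4, all under 6 TPM.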

Other observations

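The tested genes nearest to DUSP9 on chromosome X were also read. PNCK, a kinase gene 18403 bases away, stood at 8.76, 10.4 and 9.95 TPM with DMSO and 7.64, 5.89 and 7.28 TPM with HFPO-TA, lower in every HFPO-TA library (log2 fold change -0.44, SE 0.13, adjusted p = 0.24 by limma). SLC6A8, the creatine transporter 36772 bases away, stood at 17.8 ± 1.59 and 15.6 ± 0.32 TPM. On the other side CCNQ, a cyclin gene 42446 bases away, stood at 26.5 ± 1.33 and 26.7 ± 3.19 TPM, and BGN, a matrix proteoglycan gene 132937 bases away, at 7.47 ± 0.47 and 6.64 ± 1.31 TPM. None of these 4 was called, and the difference between DUSP9 and its neighbours was not tested.

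DUSP1, DUSP4 and DUSP10 were highest in replicate 1 of both groups, as were 29.7% of all tested genes. For DUSP10, replicate 1 exceeded the mean of replicates 2 and 3 by 0.57 with DMSO and 0.64 with HFPO-TA on the log2(TPM + 1) scale, against a difference between treatments of 0.18. For DUSP9, replicate 1 differed from the mean of replicates 2 and 3 by -0.06 with DMSO and -0.19 with HFPO-TA, and DMSO replicate 1 lay between the other two DMSO libraries. For DUSP6, the difference between treatments was 0.02 in replicate 1 and 0.41 in replicates 2 and 3, and for ETV4 it was -0.20 and -0.63. Replicate 1 has 1 library per group, so these within-replicate differences were not tested.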
